A study of Mus musculus with 18 samples.

Results

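The transcriptional response of mouse embryonic fibroblasts to Torin1, an inhibitor of the active site of the kinase mTOR, was read in isotonic medium from 6 of the 18 arrays of a series of Affymetrix mouse gene arrays. The 3 arrays of the treated group came from WT cells (labelled NFAT5 wild-type 5.4, strain 129sv/ev) in isotonic medium that had been given 100 nM Torin1 as a pretreatment of 1 h. Their comparison group was 3 arrays of the same cells in isotonic medium without Torin1. Both groups carry the title numbers 1, 2 and 4, and the arrays were chosen by title and treatment label alone. The titles give isotonic medium as 300 with no unit, and how long the cells were kept after the pretreatment is not stated in the labels. The most similar comparison, Torin1 in hypertonic medium (500 in the titles), was made on 6 other arrays of the same WT cells, 3 with Torin1 and 3 without. The remaining 6 arrays, of Nfat5 KO cells, entered the estimate of the spread and, where the array number was a block, the number effects, and 1 of them, isotonic KO array 1, has a genotype label that contradicts its title. The labels do not say whether arrays of a group came from separate cultures, so all p-values measure the spread between arrays, and all WT arrays represent 1 line.

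mTOR is the catalytic subunit of mTORC1, which couples amino acid and growth factor supply to protein, lipid and nucleotide synthesis, and of mTORC2, which acts on AKT and SGK1. mTORC1 is known to raise translation through the 4E-BPs and S6 kinases, to raise ATF4 protein and with it the genes of amino acid synthesis, uptake and tRNA charging, and to favour processing of the SREBP factors that drive sterol and fatty acid genes. It holds back autophagy and the lysosomal factor TFEB. Torin1 blocks both complexes, and also those mTORC1 outputs that rapamycin leaves largely intact.

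Levels are log2 signals, so a difference of 1 is 2-fold, and a level of one gene is not compared with that of another. The filter kept 15711 genes whose highest group mean exceeded 5.86. All 12 markers of mesenchymal cells passed the filter, with array means of 11.06 to 11.16 in the Torin1 arrays and 11.03 to 11.21 in the isotonic WT arrays. Vim averaged 13.97 in the Torin1 arrays and 13.95 in the isotonic WT arrays, Col1a1 12.90 and 13.01, and Thy1 6.91 in both groups. Lists of macrophage, endothelial, epithelial, muscle and neural markers had no member called in isotonic medium in either direction, with or without isotonic WT array 1. Of these lists 6 of 8 macrophage, 5 of 7 endothelial, 7 of 7 epithelial, 5 of 7 muscle and 6 of 6 neural markers passed the filter. Among them Nes averaged 10.41 and 10.68, Map2 9.29 and 9.31, Cd68 8.28 and 8.26, Csf1r 7.77 and 7.91 and Krt8 7.59 and 7.66, in the Torin1 arrays and in the isotonic WT arrays in this order. Ptprc, Adgre1, Kdr, Emcn, Myf5 and Myh3 were below it.

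One control array did not lie with its group. Over the 15711 genes, isotonic WT array 1 differed from Torin1 array 1 with an SD of 0.134, the smallest of all 153 pairs of arrays in the series, and from Torin1 array 2 with an SD of 0.164, the second smallest. Its SD to isotonic WT arrays 2 and 4 was 0.260 and 0.461. The 12 arrays other than the isotonic WT ones, fitted alone with the array number as a block, called 243 genes for Torin1 in hypertonic medium (1.55% of those tested), 101 higher (0.643%) and 142 lower (0.904%). On these genes, with increases counted as positive and decreases turned round, Torin1 arrays 1, 2 and 4 lay 0.173, 0.167 and 0.134 above the mean of the 6 isotonic arrays. Isotonic WT array 1 lay 0.167 above that mean, and isotonic WT arrays 2 and 4 lay at -0.356 and -0.284. Isotonic WT array 1 thus read like the 3 Torin1 arrays on genes chosen without any isotonic WT array, with or without Torin1, and why it did was not tested.

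**Figure D1:**
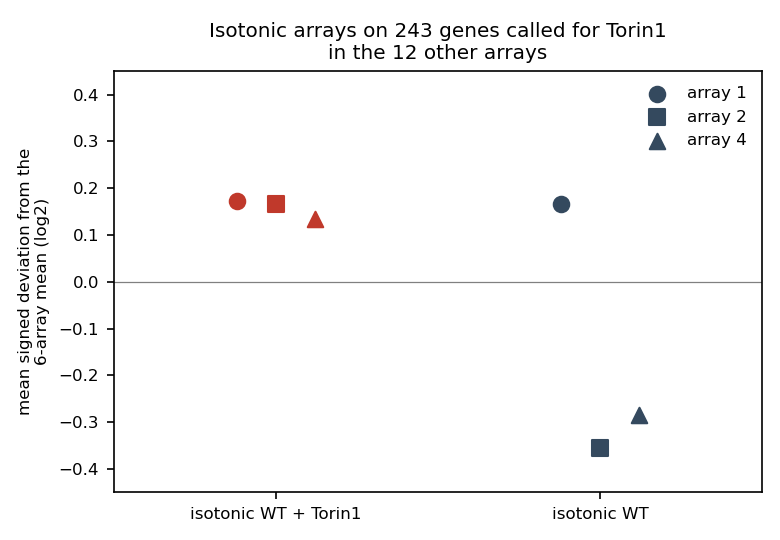
Mean signed deviation of each isotonic WT array (y axis, log2) from the mean of the 6 arrays, over 243 genes called for Torin1 in the 12 other arrays; the Torin1 group is on the left and the group without Torin1 on the right, and each point is 1 array. Isotonic WT array 1 (0.167) sits level with the Torin1 arrays (0.134 to 0.173), apart from arrays 2 and 4 of its group (-0.356 and -0.284).

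With all arrays in the fit, no gene was called for Torin1 in isotonic medium (limma, adjusted p under 0.05, 0% of 15711 genes). At an unadjusted p under 0.05, 176 genes were higher and 294 lower, and the smallest adjusted p was 1. Taking the array number as a block, since arrays of the same number deviated together, also gave 0 calls, with 788 genes under 0.05 unadjusted. The median change over all genes was 0.0105.

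Without isotonic WT array 1 the comparison rested on 3 Torin1 arrays and 2 isotonic WT arrays. It then called 25 genes, 3 higher (0.0191%) and 22 lower (0.14%), in all 0.159% of those tested, of which 7, all lower, changed at least 2-fold. With the array number as a block as well, 295 genes were called (1.88%), 48 higher (0.306%) and 247 lower (1.57%). Of these, 1 rose and 33 fell at least 2-fold, and all 25 genes of the fit without the block were among them. Other scalings moved the split, to 89 higher and 195 lower with quantile normalization and to 74 higher and 165 lower with cyclic loess. The array was left out because of its values, so these calls rest on a choice made with the data in view. Below, "rose" and "fell" refer to this last fit, called the blocked fit. The value from all 18 arrays, where no gene was called, stands beside it for some of the leading genes only. Over the 247 genes that fell the median change was -0.591 in the blocked fit and -0.383 with all arrays. Over the 48 that rose it was 0.562 and 0.365. The blocked fit also depended on the other arrays: leaving out isotonic WT array 2 or 4 as well gave 33 or 35 calls, and leaving out Torin1 array 1, 2 or 4 gave 68, 90 or 106. Without both isotonic number 1 arrays, 2 genes were called, both lower (0.0127%), and 68 with the block (0.433%), 6 higher (0.0382%) and 62 lower (0.395%). All 3 Torin1 arrays lay below isotonic WT arrays 2 and 4 in 14.2% of the genes and above them in 13.5%. Where 1 isotonic WT array is left, it is taken to vary like the other groups.

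The largest group of decreases was that of ATF4 targets, the genes of serine, glycine, proline and cysteine supply and of the stress response that this factor controls. Of 29 genes written in the list, 28 were tested, and 17 of them fell and none rose in the blocked fit, where 1.57% of all genes fell. The median change over the 28 was -0.759, against 0.00586 over all genes tested. In the fit on all arrays the median was -0.425, with 0 called. With each of the 5 other isotonic arrays left out in turn, 3 to 9 of the 28 passed, the fewest without isotonic WT array 2.

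Mthfd2, the mitochondrial folate enzyme of the one-carbon pathway, had the smallest p in the blocked fit. It read 8.94, 9.07 and 8.22 in Torin1 arrays 1, 2 and 4, against 9.17, 11.14 and 10.29 in isotonic WT arrays 1, 2 and 4. All 3 Torin1 arrays lay below all 3 isotonic WT arrays, but isotonic WT array 1 lay close to Torin1 arrays 1 and 2. The change was -2.09 ± 0.11 (SE) in the blocked fit (adjusted p = 1.47e-06) and -1.46 ± 0.39 with all arrays (adjusted p = 1).

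Cth, the enzyme that makes cysteine from cystathionine, read 7.71, 7.44 and 8.26 with Torin1, against 7.77, 9.45 and 9.57 without. It fell by 1.67 (SE 0.20, adjusted p = 0.00202), and the change was -1.13 ± 0.40 with all arrays. Isotonic WT array 1 lay among the Torin1 arrays here, and so it did for Chac1 and Trib3. Chac1, a glutathione-degrading enzyme, read 7.96, 8.62 and 7.88 with Torin1, against 8.20, 10.92 and 9.07 without, a blocked change of -1.91 ± 0.40 (adjusted p = 0.0336). Trib3, a pseudokinase that feeds back on ATF4, read 7.10, 7.38 and 7.11 with Torin1, against 7.22, 9.64 and 7.76 without, and fell by 1.60 (SE 0.35, adjusted p = 0.0391). For both, isotonic WT array 2 was far above isotonic WT array 4.

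All 3 enzymes of serine synthesis fell. Phgdh, the first of them, changed by -0.52 ± 0.12, Psat1, the second, by -1.21 ± 0.23, and Psph, the last, by -1.05 ± 0.20 (adjusted p from 0.0212 to 0.0413). Shmt2, the mitochondrial enzyme that splits serine into glycine, fell by 1.06 (SE 0.21). For Phgdh, Psat1 and Shmt2 the Torin1 arrays overlapped isotonic WT array 4 in level, and the fall shows only within array numbers. Aldh18a1, which makes the proline precursor, fell by 1.17 (SE 0.14, adjusted p = 0.00202), and Aldh1l2, a folate enzyme, fell by 1.31 (SE 0.17). Asns, asparagine synthetase, read 12.20, 12.21 and 11.76 with Torin1, against 12.19, 12.98 and 12.28 without, a change of -0.62 ± 0.12 (adjusted p = 0.0297).

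The message of Atf4 itself fell by 0.54 (SE 0.11, adjusted p = 0.0331), with 9.08, 9.13 and 8.97 in the Torin1 arrays, against 9.03, 9.72 and 9.37 without. Its partner Cebpg fell by 0.77 (SE 0.16) and the related factor Atf5 fell by 0.86 (SE 0.18). Sesn2 and Ddit4, ATF4 targets whose proteins restrain mTORC1, fell as well, with changes of -1.38 ± 0.25 (adjusted p = 0.0192) and -1.48 ± 0.30 (adjusted p = 0.0284). Castor2, the arginine sensor relative that also acts on this branch, fell by 0.71 (SE 0.15, adjusted p = 0.0342). Of 28 genes tested that feed into or restrain mTORC1, 3 fell and none rose in the blocked fit, where 1.57% of all genes fell. Their median change was -0.047. Of the ATF4 targets that did not pass, Atf3 changed by -0.75 ± 0.28, Vegfa by -0.44 ± 0.27 and Eif4ebp1 by -0.24 ± 0.18.

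**Figure D2:**
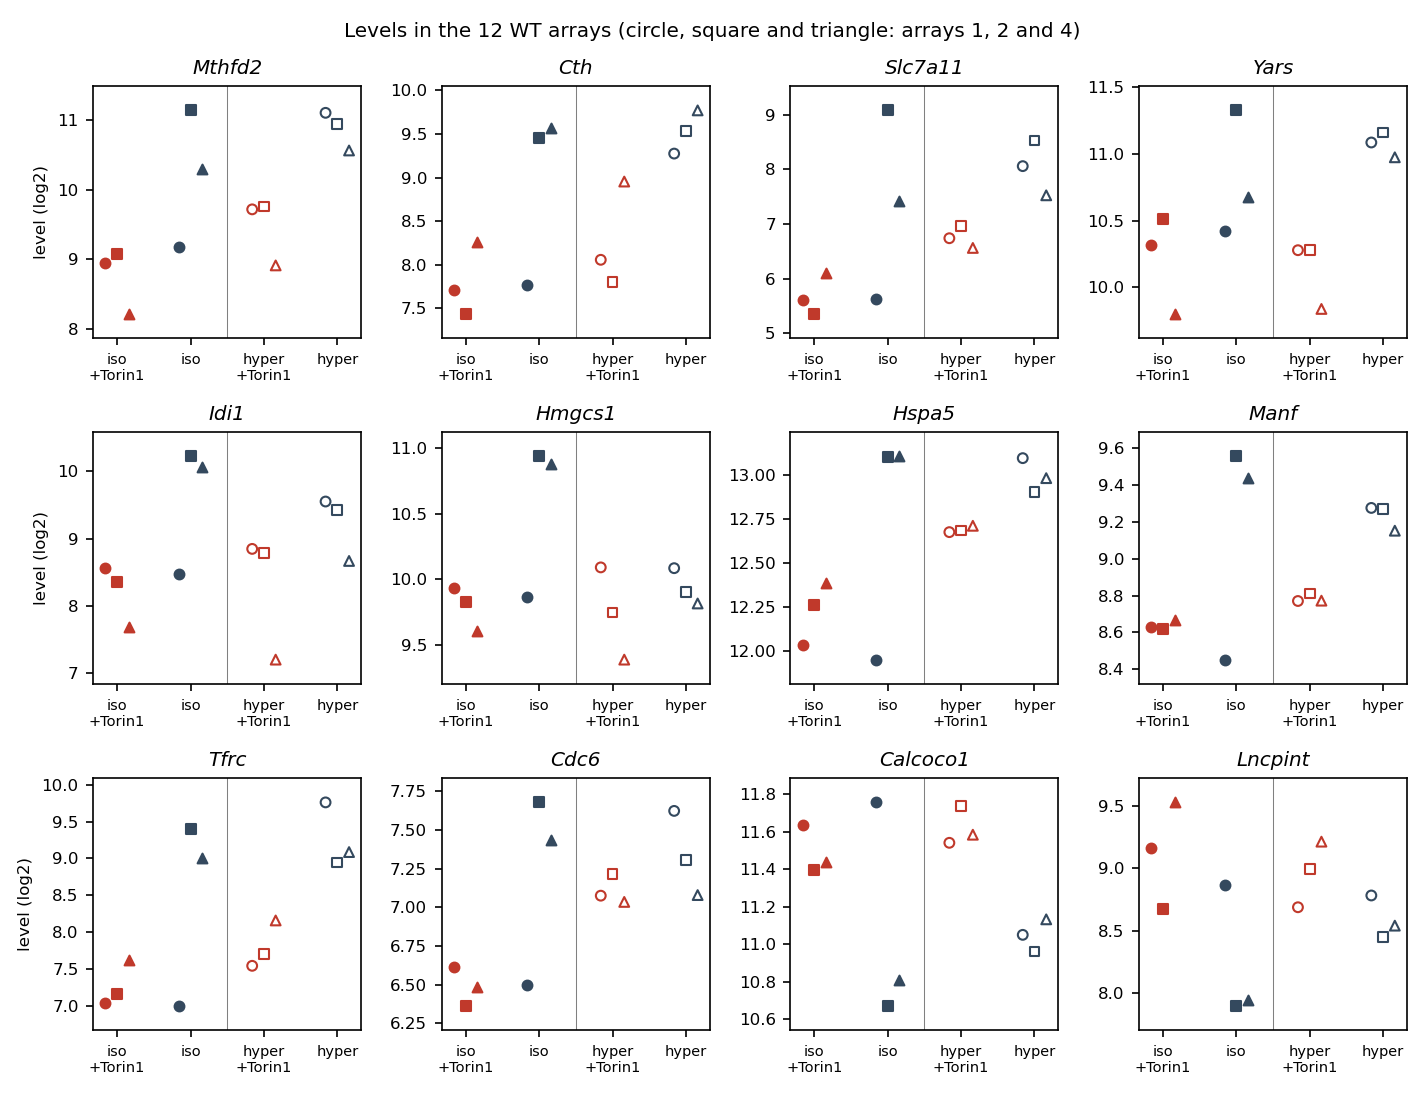
Log2 levels (y axis) of 12 genes in the 12 WT arrays: isotonic with Torin1, isotonic, hypertonic with Torin1 and hypertonic, from left to right in each panel. Each point is 1 array, with circles, squares and triangles for arrays 1, 2 and 4, and in isotonic medium the circle without Torin1 lies near the Torin1 points, as for Tfrc at 7.0001, with 9.40 and 9.004 in arrays 2 and 4.

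Amino acid transporters moved in part, where 1.57% of all genes fell in the blocked fit. Of 21 tested, 5 fell and none rose in the blocked fit (median over the 21 -0.193), and 0 to 4 passed when 1 more isotonic array was left out, with 0 without isotonic WT array 2. Slc7a11, the cystine importer, read 5.61, 5.36 and 6.10 in the Torin1 arrays, against 5.63, 9.08 and 7.42 in the isotonic WT arrays. Isotonic WT arrays 2 and 4 lay above every Torin1 array but also far from each other, and array 1 lay among the Torin1 arrays. It fell in the blocked fit (adjusted p = 0.0207), but its Torin1 mean of 5.69 was below the filter level of 5.86, so no size is given. Slc6a9, a glycine transporter, fell by 1.57 (SE 0.23), Slc1a4, for neutral amino acids, fell by 1.00 (SE 0.21), Slc7a5, the leucine carrier that feeds mTORC1, fell by 0.95 (SE 0.15) and Slc7a1, for arginine and lysine, fell by 0.82 (SE 0.18). Slc38a2, a glutamine transporter also known from hypertonic stress, changed by -0.19 ± 0.13.

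Cytosolic aminoacyl-tRNA synthetases, which load tRNAs with their amino acids, fell in 9 of 18 cases, against 1.57% of all genes, and rose in none (median -0.513, and -0.356 with all arrays). Leaving out 1 more isotonic array left 0 to 8 of them, with 0 without isotonic WT array 2. Cars, for cysteine, fell by 1.01 (SE 0.13, adjusted p = 0.00296). Yars, for tyrosine, read 10.31, 10.51 and 9.80 with Torin1, against 10.42, 11.32 and 10.67 without, and fell by 0.86 (SE 0.13, adjusted p = 0.00584). Mars1 fell by 0.87 (SE 0.12) and Lars fell by 0.73 (SE 0.10). The other 5 called members, Gars, Tars, Wars, Nars and Hars, fell with changes from -0.73 to -0.49. In the same list Kars, at 0.08, and Qars, at 0.19, did not pass.

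Since these groups moved together, the RefSeq promoter windows of their genes (GRCm38.p6, 250 bases before to 50 after each start, 1 window a gene) were searched for the composite site of C/EBP and ATF4, TGATGNAAN on either strand. It was found in 1091 of 27025 windows (4.04%) and in 292 of the 12343 windows of genes tested (2.37%). Of ATF4 targets 7 of 25 windows held it (3 of the 15 of genes that fell), of amino acid transporters 3 of 16 and of tRNA synthetases 4 of 11. The genes that fell and held it were Asns, Chac1, Trib3, Slc1a4, Slc7a11, Gars, Tars and Yars. 3 of these windows are printed to show where the match lies: Asns (chr6:7693160-7693459, minus strand), with 1 match starting 23 bases before the start, Slc7a11 (chr3:50443564-50443863, minus strand), with 1 match on each strand, 66 and 48 bases before it, and Yars (chr4:129189653-129189952, plus strand), with 1 match just after it. Capitals mark the matches, in the letters of the gene's own strand. A match is a description of the letters only, and these windows do not say whether the factor was bound.
Asns: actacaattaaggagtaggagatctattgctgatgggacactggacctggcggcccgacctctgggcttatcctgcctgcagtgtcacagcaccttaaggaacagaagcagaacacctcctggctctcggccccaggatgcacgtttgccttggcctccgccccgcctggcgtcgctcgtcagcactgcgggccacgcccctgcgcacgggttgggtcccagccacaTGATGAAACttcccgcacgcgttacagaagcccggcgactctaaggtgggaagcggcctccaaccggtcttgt
Slc7a11: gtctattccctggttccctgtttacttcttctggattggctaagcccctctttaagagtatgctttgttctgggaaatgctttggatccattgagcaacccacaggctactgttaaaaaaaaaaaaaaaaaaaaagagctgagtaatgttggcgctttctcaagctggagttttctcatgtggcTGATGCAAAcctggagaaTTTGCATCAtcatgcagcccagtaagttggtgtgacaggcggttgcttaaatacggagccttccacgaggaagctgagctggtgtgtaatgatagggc
Yars: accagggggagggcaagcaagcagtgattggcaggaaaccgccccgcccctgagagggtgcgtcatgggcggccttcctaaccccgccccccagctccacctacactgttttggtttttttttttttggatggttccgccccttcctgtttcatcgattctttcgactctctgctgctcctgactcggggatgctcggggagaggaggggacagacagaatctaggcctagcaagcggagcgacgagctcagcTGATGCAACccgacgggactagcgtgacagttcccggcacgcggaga

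Sterol synthesis was the second large group of decreases. Of 24 genes written, 20 were tested, and 13 fell and none rose in the blocked fit, where 1.57% of all genes fell. The median was -0.707, and -0.475 with all arrays. All 20 were lower with Torin1 in both numbers 2 and 4, against 34.3% of all genes, and 3 of the 20 were lower in number 1, against 35.4% of all genes. With 1 more isotonic array left out, 3 to 9 of them passed, the fewest without isotonic WT array 4.

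Idi1, which isomerises the isoprene unit, read 8.56, 8.35 and 7.69 with Torin1, against 8.47, 10.22 and 10.06 without. It fell by 2.12 (SE 0.24, adjusted p = 0.00132), and the change was -1.39 ± 0.52 with all arrays. Hmgcs1, the synthase at the entry of the mevalonate pathway, read 9.93, 9.83 and 9.61 with Torin1, against 9.87, 10.94 and 10.88 without, and fell by 1.24 (SE 0.18, adjusted p = 0.00584). In both genes isotonic WT arrays 2 and 4 lay close to each other and above the 4 other isotonic arrays. Msmo1 fell by 1.56 (SE 0.19), Sqle, the squalene epoxidase, fell by 1.26 (SE 0.13), Hsd17b7 fell by 1.24 (SE 0.23) and Cyp51 fell by 1.16 (SE 0.20). Insig1, the sterol sensor that retains SREBP in the endoplasmic reticulum, fell by 1.01 (SE 0.17, adjusted p = 0.0137). Srebf2, the factor of this pathway, fell by 0.48 (SE 0.11, adjusted p = 0.0401), while Srebf1 read 9.97, 9.80 and 9.56 with Torin1, against 9.87, 9.87 and 9.77 without (-0.09 ± 0.10, adjusted p = 0.78). Mvk, Mvd, Pmvk, Fdft1, Nsdhl, Ebp and Tm7sf2 did not pass.

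Among fatty acid genes 3 of 17 fell, and 0 to 2 with 1 more isotonic array left out. Scd2, a desaturase, fell by 0.91 (SE 0.15), Fasn, fatty acid synthase, fell by 0.61 (SE 0.13) and Mid1ip1, an activator of acetyl-CoA carboxylase, fell by 0.56 (SE 0.11). In the blocked fit 1.57% of all genes fell. The core of the sterol regulatory element, TCACNCCAC on either strand, occurred in 330 of all 27025 windows (1.22%) and in 1 of the 16 windows of the sterol list, that of Hmgcs1 (chr13:119690101-119690400, plus strand). Its match begins 137 bases before the start and is in capitals.
Hmgcs1: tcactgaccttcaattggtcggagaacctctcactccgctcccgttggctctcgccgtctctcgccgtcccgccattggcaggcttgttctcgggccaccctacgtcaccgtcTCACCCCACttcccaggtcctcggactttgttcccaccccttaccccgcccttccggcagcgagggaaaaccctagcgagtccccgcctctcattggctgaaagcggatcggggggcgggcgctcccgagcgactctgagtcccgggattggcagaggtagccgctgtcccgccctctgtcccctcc

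Chaperones and folding enzymes of the endoplasmic reticulum formed the group with the most calls before any block. Of 22 tested, 8 fell in the fit without isotonic WT array 1, of the 22 genes that fell there, and 10 fell in the blocked fit, with none rising (median -0.492, and -0.321 with all arrays). Over all genes, 0.14% fell without the block and 1.57% in the blocked fit. With 1 more isotonic array left out, 3 to 7 passed, with 3 without isotonic WT array 2 or 4. Manf, a small secreted protein of the unfolded protein response, read 8.63, 8.62 and 8.67 with Torin1, against 8.45, 9.56 and 9.44 without. Its blocked change of -0.84 ± 0.09 (adjusted p = 0.000878) compares with -0.51 ± 0.19 for all arrays. Hspa5, the main chaperone of the compartment (BiP), read 12.04, 12.26 and 12.39 with Torin1, against 11.95, 13.10 and 13.11 without, a change of -0.86 ± 0.10 (adjusted p = 0.00202). In both genes isotonic WT array 1 was the lowest of the 6 arrays.

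Hyou1, a co-chaperone of Hspa5, fell by 0.85 (SE 0.10), Sdf2l1 fell by 0.93 (SE 0.16), Creld2 fell by 0.64 (SE 0.10), the disulfide isomerases Pdia6 (-0.63 ± 0.11) and Pdia4 (-0.49 ± 0.09) fell, Dnajb11 fell by 0.64 (SE 0.14), Hsp90b1 fell by 0.52 (SE 0.10) and the lectin chaperone Calr fell by 0.49 (SE 0.09). The sensors of the response did not pass: Atf6 changed by -0.05 and Ern1 by 0.07, and their shared target Xbp1 by -0.59 (adjusted p = 0.0982). Further genes of the secretory pathway that fell in the fit without the block and belong to no list were Ostc, a subunit of the oligosaccharyltransferase (10.86, 10.90 and 10.92 with Torin1, against 10.89, 11.69 and 11.67 without), Fkbp14, a prolyl isomerase for collagen (9.53, 9.56 and 9.97, against 9.55, 10.73 and 11.15), and Gmppb, which makes GDP-mannose (7.25, 7.35 and 6.92, against 7.20, 8.53 and 8.05). Their blocked changes were -0.82 ± 0.09, -1.25 ± 0.13 and -1.16 ± 0.16. For all 3 genes isotonic WT array 1 read as the Torin1 arrays did.

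The element of such promoters, CCAAT and CCACG 9 bases apart on either strand, was searched after the values had been seen. It occurred in 35 of 27025 windows (0.13%) and in 9 of the 19 windows of the list, among them 5 of the 8 of genes that fell, Hspa5, Hsp90b1, Pdia6, Creld2 and Calr. The windows of Hspa5 (chr2:34771840-34772139, plus strand), Hsp90b1 (chr10:86705395-86705694, minus strand), which holds 2 copies, and Creld2 (chr15:88819396-88819695, plus strand) are shown, with both parts of each match in capitals. In Creld2 and the second copy of Hsp90b1 it lies on the opposite strand, so the printed letters are the reverse complement.
Hspa5: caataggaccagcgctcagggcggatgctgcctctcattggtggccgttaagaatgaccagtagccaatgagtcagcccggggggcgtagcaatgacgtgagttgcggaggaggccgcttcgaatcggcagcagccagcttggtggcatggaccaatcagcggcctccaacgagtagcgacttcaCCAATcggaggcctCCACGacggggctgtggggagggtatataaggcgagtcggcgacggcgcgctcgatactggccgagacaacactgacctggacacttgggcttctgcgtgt
Hsp90b1: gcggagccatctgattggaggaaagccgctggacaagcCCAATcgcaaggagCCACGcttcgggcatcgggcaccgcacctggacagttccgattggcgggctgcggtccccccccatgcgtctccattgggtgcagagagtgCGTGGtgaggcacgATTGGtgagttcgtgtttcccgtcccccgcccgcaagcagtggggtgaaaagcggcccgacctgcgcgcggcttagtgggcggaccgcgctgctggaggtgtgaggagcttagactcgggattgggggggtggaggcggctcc
Creld2: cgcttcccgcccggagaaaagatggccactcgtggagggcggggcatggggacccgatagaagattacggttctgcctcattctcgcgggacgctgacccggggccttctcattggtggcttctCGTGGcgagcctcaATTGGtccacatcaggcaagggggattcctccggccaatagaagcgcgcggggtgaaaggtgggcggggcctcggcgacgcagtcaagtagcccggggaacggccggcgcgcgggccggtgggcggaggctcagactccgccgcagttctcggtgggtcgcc

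Tfrc, the transferrin receptor that takes up iron, was among the genes called with and without the block. Its level was 7.04, 7.16 and 7.62 in the Torin1 arrays, against 7.0001, 9.40 and 9.004 in the isotonic WT arrays. Isotonic WT array 1 was the lowest of the 6. Tfrc fell by 1.91 (SE 0.24, adjusted p = 0.00296), and the change was -1.93 ± 0.24 without the block (adjusted p = 0.00744) and -1.20 ± 0.43 with all arrays.

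Genes of DNA replication were lower with Torin1 in both numbers 2 and 4 in 26 of 30 cases, against 34.3% of all genes. In the blocked fit, where 1.57% of all genes fell, 5 of the 30 fell (median -0.43, with -0.227 in number 2 and -0.84 in number 4). Between 0 and 3 passed with 1 more isotonic array left out, and none without isotonic WT array 4. Cdc6, which loads the replicative helicase, read 6.61, 6.36 and 6.48 with Torin1, against 6.50, 7.68 and 7.43 without, and fell by 1.09 (SE 0.15, adjusted p = 0.00563). The helicase subunits Mcm4 (-0.82 ± 0.14) and Mcm2 (-0.80 ± 0.18) fell, Pcna, the polymerase clamp, fell by 0.71 (SE 0.13) and Fen1, a flap nuclease, fell by 0.73 (SE 0.13). The E cyclins, which start S phase, fell too: Ccne1 fell by 1.20 (SE 0.17, adjusted p = 0.00563) and Ccne2 fell by 1.24 (SE 0.24, adjusted p = 0.0246), together with their kinase Cdk2 (-0.48, SE 0.11) and the phosphatase Cdc25a (-0.51, SE 0.10). Of the 26 genes of that list these 4 fell, and 0 to 2 with 1 more isotonic array left out. Ccnd1 read 10.23, 10.17 and 11.04 with Torin1, against 10.15, 10.82 and 11.26 without, and Myc 11.02, 11.35 and 11.27, against 10.88, 11.68 and 10.69. Neither passed (adjusted p = 0.511 and 0.983). None of 27 mitotic genes was called, and their median change was -0.0565. In bulk RNA, fewer cells in a phase and less RNA per cell cannot be told apart.

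Energy and nucleotide metabolism held fewer calls, and with 1 more isotonic array left out 0 to 1 glycolysis and HIF-1 genes, 0 to 3 of oxidative phosphorylation, 0 to 1 nucleotide genes and 0 pentose phosphate genes passed. Over all genes tested, 1.57% fell in the blocked fit. Of 34 genes of glycolysis and HIF-1 targets 4 fell: Pgam1, a glycolytic mutase, fell by 0.56 (SE 0.11), Pgk1 fell by 0.52 (SE 0.10), the collagen hydroxylase subunit P4ha1 fell by 0.66 (SE 0.12) and Higd1a, a mitochondrial protein, fell by 0.76 (SE 0.15). Pgam1 read 11.79, 11.92 and 11.89 with Torin1, against 11.92, 12.41 and 12.44 without, and was also called without the block (adjusted p = 0.0456). Hif1a changed by -0.11 ± 0.09 and the glucose transporter Slc2a1 by -0.49 ± 0.23, neither past the test. Of 28 genes of oxidative phosphorylation 4 fell, Atp5g1, Cycs, Cox5a and Ndufs8, with changes from -0.56 to -0.42. Tk1 (-0.75 ± 0.16) and Pfas (-0.58 ± 0.14) were the 2 of 22 nucleotide genes that fell, and Taldo1 the 1 of 6 of the pentose phosphate pathway (-0.55, SE 0.13).

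Increases were fewer and smaller. Lncpint, a long non-coding RNA that p53 induces, was the only gene that rose at least 2-fold in the blocked fit. It read 9.16, 8.67 and 9.53 with Torin1, against 8.87, 7.90 and 7.95 without, a change of 1.21 ± 0.21 (adjusted p = 0.0147), and 0.89 ± 0.26 with all arrays. Isotonic WT array 1 lay within the range of the Torin1 arrays. Calcoco1, a coactivator also known as an autophagy receptor for the endoplasmic reticulum, read 11.63, 11.40 and 11.44 with Torin1, against 11.76, 10.67 and 10.81 without, and rose by 0.72 (SE 0.11, adjusted p = 0.00621). Usp30, a deubiquitinase of mitochondria that restrains mitophagy, read 10.64, 10.58 and 10.46, against 10.75, 9.98 and 9.998, and rose by 0.54 (SE 0.09, adjusted p = 0.0147). For these 2 genes and for Tex26 (0.76, SE 0.12), the 3 that also rose without the block, isotonic WT array 1 was the highest of the 6.

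Crebrf, a regulator of the CREB3 factors and of energy balance, rose by 0.73 (SE 0.15, adjusted p = 0.0321), with all 3 Torin1 arrays, at 9.69, 9.61 and 9.88, above all 3 isotonic WT arrays, at 9.58, 8.80 and 9.15. Ccdc28a showed the same separation and rose by 0.81 (SE 0.15). Such a separation upward was found in 3.49% of all genes tested, and one downward in 2.53%. Klhl24, a ubiquitin ligase adaptor, rose by 0.67 (SE 0.12), the polycomb protein Cbx7 by 0.64 (SE 0.10), Bach2, a transcriptional repressor, by 0.64 (SE 0.14) and Foxk1, a factor that represses starvation genes downstream of mTORC1, by 0.62 (SE 0.12).

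Among genes upstream of mTOR, Irs2, the insulin receptor adaptor, and Pik3ip1, an inhibitor of PI3K, rose, as did 0.306% of all genes. Irs2 read 9.61, 9.58 and 10.12 with Torin1, against 9.78, 8.97 and 9.68 without (0.61 ± 0.12, adjusted p = 0.03). Pik3ip1 read 10.18, 10.06 and 9.78, against 10.15, 9.49 and 9.33 (0.56 ± 0.13, adjusted p = 0.048). They were 2 of 17 insulin and PI3K genes tested, of which none fell, and 0 to 2 passed with 1 more isotonic array left out. Irs2 was also the only one of 29 FOXO targets and factors that rose, and Foxo1 (0.38 ± 0.12) and Foxo3 (0.45 ± 0.15) did not pass.

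**Figure D3:**
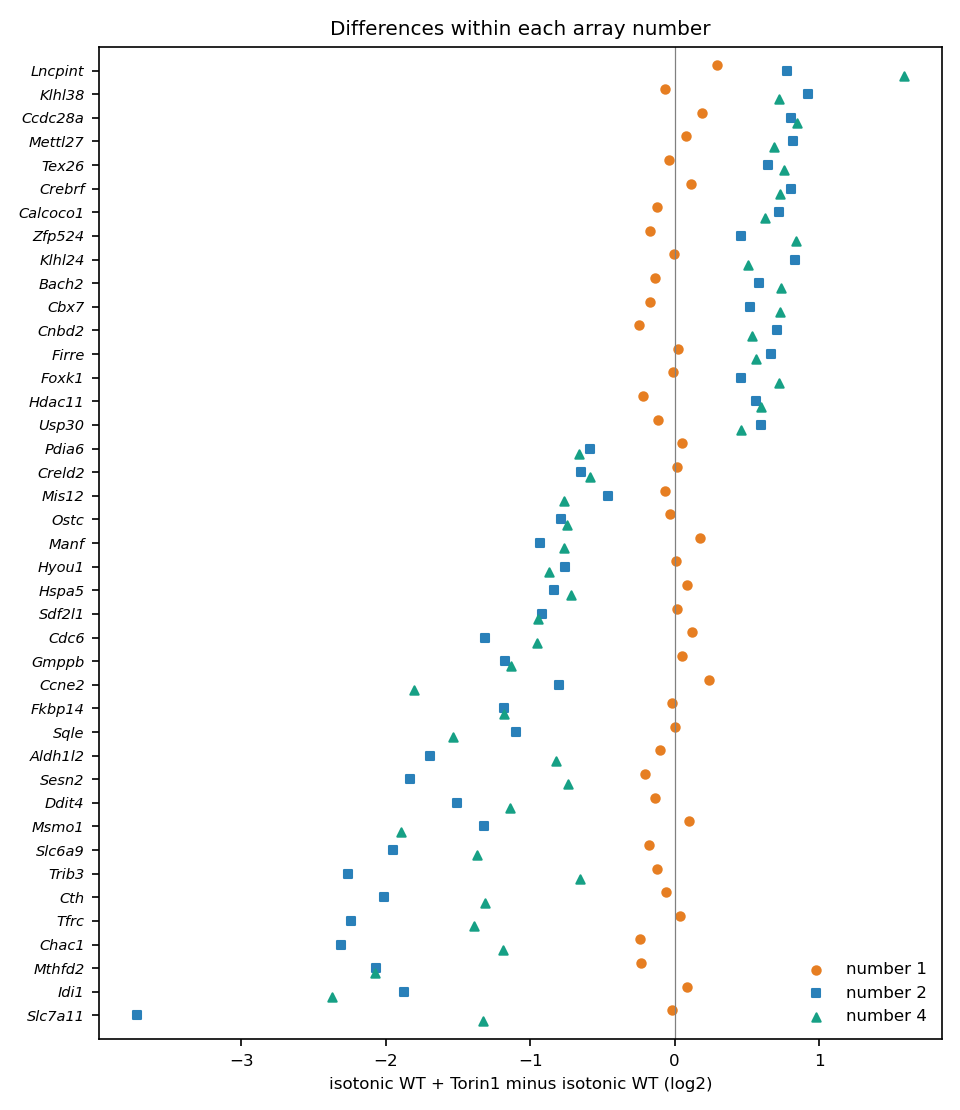
Torin1 minus no Torin1 in isotonic WT cells (x axis, log2) within array numbers 1, 2 and 4 for 41 of the genes named by the largest changes, 16 that rose and 25 that fell in the blocked fit. Of the isotonic WT arrays, the 3 with Torin1 and arrays 2 and 4 without it entered the fits that chose these genes. Isotonic WT array 1 did not, and the differences of number 1 (circles) run from -0.247 to 0.292.

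None of 11 subunits of the mTOR complexes was called, with changes in the blocked fit from -0.249 to 0.364. Mtor read 9.38, 9.35 and 9.27 with Torin1, against 9.43, 9.31 and 9.29 without, and Rptor, the mTORC1 scaffold, 9.20, 9.03 and 9.22, against 9.21, 9.26 and 9.36. Rictor, the mTORC2 scaffold, read 12.46, 12.34 and 12.26, against 12.28, 12.03 and 11.98, and its change of 0.36 ± 0.18 did not pass. Sgk1, a kinase downstream of mTORC2, had all 3 Torin1 arrays (10.25, 10.52 and 10.70) above the 3 isotonic WT arrays (10.14, 9.94 and 10.14), with 0.43 ± 0.20 in the blocked fit (adjusted p = 0.36).

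Messages tied to the better known outputs of mTORC1 showed few calls. None of 34 ribosomal protein genes, whose translation mTORC1 controls, was called (median -0.00156). Of 41 ribosome biogenesis genes 2 fell, Bysl (-0.61 ± 0.13) and Nop56 (-0.53 ± 0.11), and of 25 translation factors 1 fell, Eif4e, the cap-binding protein (-0.56 ± 0.11). Of 35 lysosome genes 1 fell and none rose, Gusb, a lysosomal glucuronidase, being the one (-0.43 ± 0.09), and Tfeb changed by 0.20 ± 0.12. Over all genes tested, 1.57% fell in this fit. With Torin1 array 1, 2 or 4 also left out, 0 translation factors and 0 lysosome genes were called. Of ribosome biogenesis genes 0, 2 and 0 were called lower in these fits. None of 29 autophagy genes was called, although 19 of them were higher with Torin1 in both numbers 2 and 4, against 29.2% of all genes, with a median of 0.105. None of 28 proteasome genes was called, and 22 were lower in both numbers, against 34.3% of all genes (median -0.225).

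**Figure D4:**
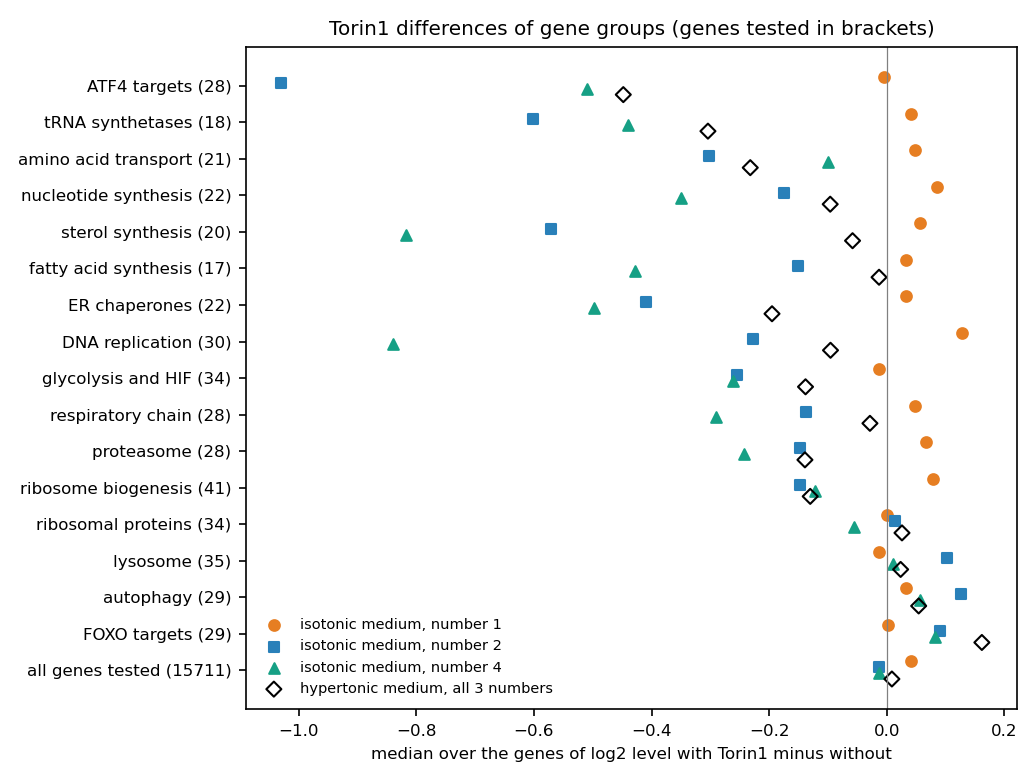
Median over the genes of each group (x axis, log2 level with Torin1 minus without) in isotonic medium for array numbers 1, 2 and 4, and in hypertonic medium over the 3 numbers (open diamonds), with the number of genes tested in brackets. ATF4 targets lie at -1.03 and -0.51 in numbers 2 and 4 and at -0.004 in number 1, and ribosomal proteins stay near 0 throughout.

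Within array numbers, the difference over all genes had an SD of 0.134 in number 1, 0.233 in number 2 and 0.277 in number 4, and 2, 49 and 61 genes were lower by at least 1. Over the genes, the differences of numbers 2 and 4 correlated with r = 0.495. Number 1 correlated with number 2 at 0.00397 and with number 4 at 0.0177. These pairs share no array, but each difference carries the errors of its own 2 arrays. In the blocked fit number 1 kept its isotonic Torin1 array, and the number 1 arrays of the other groups entered the number effect. Of the 247 genes that fell in this fit, 90 were lower with Torin1 in number 1, where 35.4% of all genes were lower. Their median there was 0.0271, against 0.0421 over all genes.

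The hypertonic contrast is between other arrays than the isotonic one, but the fits share the spread and, with the block, the number effects, so their calls are not independent. There, Torin1 called 18 genes with all arrays (0.115%), 9 higher and 9 lower (0.0573% each), and 220 with the array number as a block (1.4%), 118 higher (0.751%) and 102 lower (0.649%). The isotonic calls were made without isotonic WT array 1, which read like the Torin1 arrays on genes called in hypertonic medium. Leaving it out favours agreement between the media, so the counts that follow are not an independent comparison. Of the 247 genes that fell in isotonic medium, 238 were also lower in hypertonic medium, where 47.8% of all genes were lower, and their median there was -0.378. Of the 48 that rose, 48 were higher there, as were 52.2% of all genes, and their median was 0.481. In the 12-array fit 68 of the 247 fell as well, which is 27.5% of these and 47.9% of the 142 that fell there. Of the 48, 17 rose there (35.4%, and 16.8% of 101). Over all genes, 0.904% fell and 0.643% rose in the 12-array fit. Read the other way, the 142 genes that fell in hypertonic medium had medians of -0.472 and -0.453 in isotonic numbers 2 and 4, and 0.00916 in number 1.

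ATF4 targets had a median of -0.448 in hypertonic medium with 6 of 28 called, all lower, with the number as a block, and tRNA synthetases -0.304 with 4 of 18. Over all genes, 0.649% were called lower in that fit. Mthfd2 read 9.72, 9.76 and 8.91 with Torin1 in hypertonic medium, against 11.10, 10.94 and 10.56 without (-1.41 ± 0.32 with the block, adjusted p = 0.0453, and ± 0.39 without it, adjusted p = 0.138). Yars read 10.28, 10.28 and 9.84, against 11.08, 11.16 and 10.97 (-0.94 ± 0.17 with the block, adjusted p = 0.0225, and ± 0.23 without it, adjusted p = 0.107). In these genes the hypertonic groups did not overlap. The share of all genes separated in this way in hypertonic medium was not counted.

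Sterol genes had a median of -0.058 in hypertonic medium, with none called. Hmgcs1 read 10.09, 9.75 and 9.39 with Torin1 there, against 10.08, 9.90 and 9.81 without, and Cyp51 9.45, 9.08 and 8.40, against 8.91, 8.59 and 8.34. Their hypertonic change was -0.19 ± 0.30 for Hmgcs1 and 0.36 ± 0.39 for Cyp51. The difference of the effects between the media, tested gene by gene, passed for no gene in any of the fits with and without isotonic WT array 1 and the block (317 genes at an unadjusted p under 0.05 with all arrays, 657 in the blocked fit). The smallest adjusted p in the blocked fit was 0.342, reached by Cyp51 (hypertonic minus isotonic effect 1.52), Insig1 (1.37) and Fdps (0.89) among the sterol genes. A different sterol response in the 2 media is therefore not shown by the test. Chaperones of the endoplasmic reticulum had a hypertonic median of -0.195 with 1 of 22 called, and Hspa5 read 12.68, 12.69 and 12.71 with Torin1, against 13.10, 12.90 and 12.98 without.

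**Figure D5:**
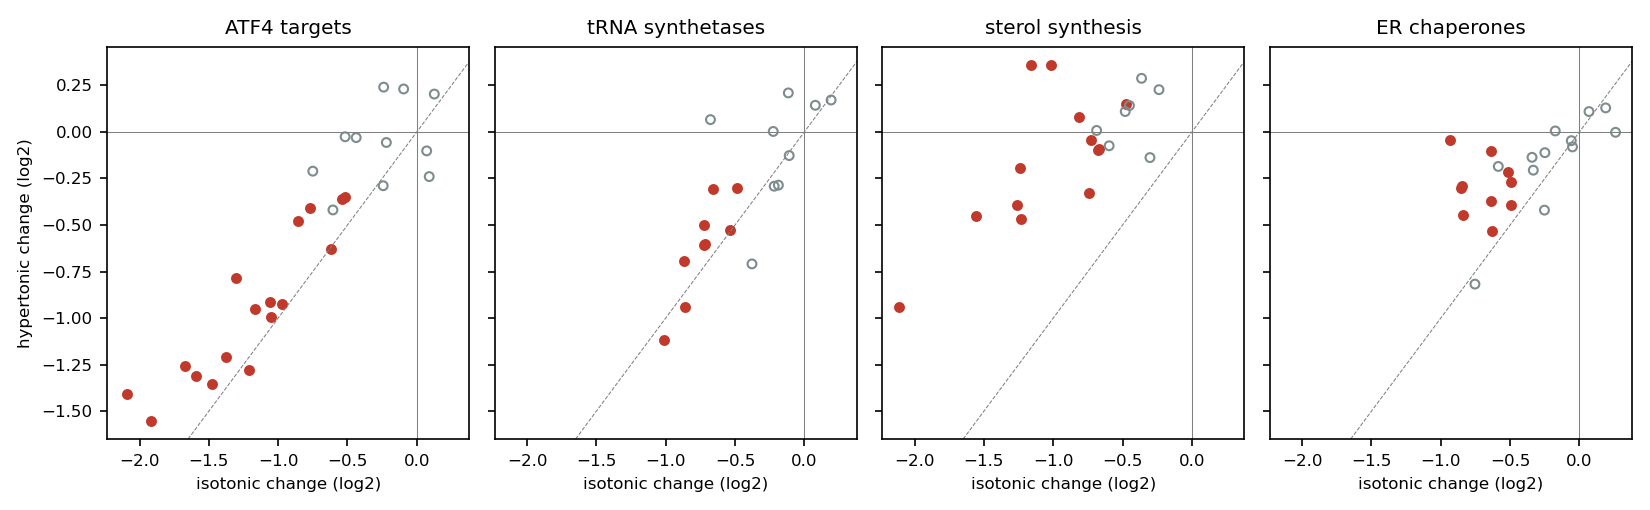
Torin1 change in isotonic WT cells (x axis, log2, blocked fit without isotonic WT array 1) against that in hypertonic WT cells (y axis, log2, all arrays) for the tested members of 4 groups. Each point is 1 gene, filled where it fell in the isotonic blocked fit, and the dashed line marks equal changes; the medians are -0.759 and -0.448 for ATF4 targets and -0.707 and -0.058 for sterol genes, and the difference between media passed for no gene.

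The remaining groups held few or no calls in isotonic medium, and with 1 more isotonic array left out at most 1 member passed in the matrix, p53 and NRF2 lists and none in the heat shock, histone and mitochondrial ribosome lists. Of collagens and matrix genes 3 of 31 fell, P4ha1, Serpinh1, the collagen chaperone (-0.48, SE 0.10), and Fbln5, an elastic fibre protein (-0.45, SE 0.10). Of heat shock genes 1 of 17 fell, Stip1, an adaptor of Hsp70 and Hsp90 (-0.53, SE 0.10), of p53 targets Sesn2 among 18, of NRF2 targets Slc7a11 among 15, and of histones H2az1 among 9. The 9 histone genes had a median of 0.277, with 5 higher and 2 lower with Torin1 in both numbers 2 and 4. Of all genes, 29.2% were higher and 34.3% lower in both. Among 32 mitochondrial ribosomal proteins Mrpl20 was lower (-0.45 ± 0.09) and Mrpl9 higher (0.53 ± 0.12), 30 did not pass, and the median was -0.055. Over all genes tested, 1.57% fell and 0.306% rose in the same fit. No member was called among immediate early genes (24), NF-kB and inflammation (29), interferon-stimulated genes (24), clock genes (17), actin and SRF targets (19), matrix enzymes (20), growth factors (22), receptor tyrosine kinases and their feedback (19) or lipid handling (21). Osmolyte genes and NFAT5 targets, 12 in all, had none called either: the inositol transporter Slc5a3 read 8.52, 8.11 and 8.77 with Torin1, against 8.26, 8.68 and 8.75 without, and Nfat5 itself 10.40, 10.03 and 10.12, against 10.13, 9.99 and 9.94.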

How the data were processed

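RNA of 18 arrays was measured on an Affymetrix mouse gene array. The deposited values are log2 signals per probe set that the authors normalized with RMA in R 2.11.1, per the submitters' processing notes, and they were used without further normalization. Array medians ran from 6.96 to 7.13, and the number of arrays limits the precision. Of 34760 probe sets, 21640 name 1 gene, 1321 several and 11799 none. Each of 19937 genes was taken from its probe set of highest mean. Genes were kept where the highest group mean passed the 30th percentile, which left 15711.

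Group means over all 18 arrays were fitted with limma 3.58.1 in R 4.3.3 (12 residual degrees of freedom), and p-values were adjusted by Benjamini-Hochberg within each comparison, with calls at an adjusted p under 0.05. Changes have Torin1 on top. The title numbers were taken to pair the arrays, since the deviations of same-numbered arrays of both isotonic groups correlated at 0.581, 0.703 and 0.847. The block spans all groups, KO among them. Over the 45 pairs of the same number from different groups the correlation ran from 0.0945 to 0.847. Numbers 1 and 2 were hardly told apart: isotonic WT array 2 correlated with Torin1 array 1 at 0.577, and isotonic WT array 1 with Torin1 array 2 at 0.379, while every pair of number 4 with another number was below 0. The fits were tested on simulated data. There isotonic WT array 1 was drawn in the same way as the other arrays, so that test does not bear on leaving it out. One isotonic KO array has a title and a genotype label that contradict each other and was kept as KO by its title.

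The genes, lists and tests were chosen with earlier results of these data known. The named genes are up to 15 largest called changes per direction without overlap of the groups, up to 4 called members of each list by p, or 2 members where none was called, and a panel. The rule was applied to the fits without isotonic WT array 1, because the fit on all arrays called none. Other called members of a list, and Kars, Qars, Atf6, Ern1, Xbp1 and the sterol genes that did not pass, were named after their values were seen. Each array was left out in turn, and the other fits without isotonic WT array 1 were added after seeing the data. Further alternatives were other scalings, filters, array weights and left-out arrays.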

Additional observations from a re-analysis of the deposited data

Results flagged for a closer look

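In 5 of the 230 genes named by the rule (2.17%) the Torin1 change had one sign in all 3 array numbers in isotonic medium and the opposite sign in all 3 in hypertonic medium, as did 308 of all 15711 genes tested (1.96%). The hypertonic minus isotonic change over all arrays was 0.661 for Fdps, 0.362 for Rpl13, -0.187 for Fcer1g, -0.347 for Nfat5 and -0.347 for Prelp. The test of that difference passed for none of them. The adjusted p was 1 for each with all arrays, and without isotonic WT array 1 with the number as a block it was 0.342 for Fdps and 1 for the others.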

How the results depend on the processing

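With all arrays, Torin1 in isotonic medium called 0 genes, also with the array number as a replicate block. Leaving out 1 array at a time gave 0 to 25 calls, with 25 only without isotonic WT array 1, and 0 to 7 calls of at least 2-fold. The block without that array gave 295 calls (34 at least 2-fold), leaving out both isotonic number 1 arrays 2, and that with the block 68 (21 at least 2-fold).

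Without isotonic WT array 1 and without the block, the 25 calls became 15 with quantile normalization, 9 with cyclic loess, 391 with array weights, 0 with only the groups of the contrast, 2 without both number 1 arrays, 11 without isotonic KO array 1 and 179 without all number 4 arrays, and 0 to 15 with 1 more array left out. With the replicate block, the 295 calls became 1867 with array weights, 942 with only the groups of the contrast, 68 without both number 1 arrays, 122 without all number 4 arrays and 33 to 106 with 1 more array left out. Quantile normalization called 89 higher and 195 lower there, and cyclic loess 74 and 165, against 48 and 247 in the values as deposited. The 942 calls of the fit with only the groups of the contrast rest on arrays 2 and 4 of each group. Torin1 array 1 had no partner of its number in that fit, and few residual degrees of freedom were left. Of 111 named genes called in the blocked fit with 295 calls, 39, 44 or 47 passed with Torin1 array 1, 2 or 4 also left out. With cyclic loess 91 passed, and none of the 111 changed sign.

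In hypertonic medium the 18 calls became 1210 with array weights, 0 with only the groups of the contrast, 220 with the block, 657 with the block without isotonic WT array 1, 2 without isotonic KO array 1, 749 without all number 4 arrays and 0 to 118 with 1 array left out. The difference between media called 1 gene with array weights, 1 without all number 4 arrays and 0 to 0 with 1 array left out. The cause of these shifts was not tested.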

Other observations

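Of 8512 tested probe sets with no gene name, none was called with all arrays, 1 was lower without isotonic WT array 1, and 7 were lower and none higher with the array number as a block as well.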
